A study of Mus musculus with 10 samples.

Results

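The regions described here are the piRNA clusters of the small RNA count table: the rows of type piRNA, each named piRNAclusterDB followed by a number. They were 2389 of the 6968 rows and formed the most numerous of the 10 row types. The counts came from small RNA sequencing of CD43- splenic B-cells, that is, spleen cells depleted of CD43-bearing cells, which leaves mainly resting B-cells. The study asked whether the enhancers of the immunoglobulin heavy chain locus (Igh) depend on each other in mature B-cells, which were activated with lipopolysaccharide (LPS), a bacterial product. Mice were wild type (wt), deficient for the 3'RR (the regulatory region downstream of Igh, 3'RR-deficient) or deficient for the intronic enhancer Eµ (Eµ-deficient), and no other allele is named in the labels. Cells were either non-stimulated (NS) or stimulated with LPS at 5 µg/ml, as the sample labels write it (the protocol text writes mg in place of µg). By the labels every culture lasted 2 days, whereas the article speaks of cells before and after stimulation, and if the latter holds, culture and LPS cannot be told apart. Each library pooled the cells of 2 mice. The wt and 3'RR-deficient groups had 2 libraries per condition, and the Eµ-deficient group had 1 library per condition and so no replicate.

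PIWI-interacting RNAs (piRNAs) are small RNAs that guide PIWI proteins to silence transposons. They are known from the germ line, where long single-stranded precursors are transcribed from genomic clusters and cut into piRNAs. A cluster row is a count over a whole genomic region, and such a region can also hold host genes of other small RNAs. Among these are small nucleolar RNAs (snoRNAs), which are cut from introns and guide chemical modification of ribosomal RNA. Box C/D snoRNAs carry a box C near the 5′ end and a box D near the 3′ end.

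The cluster with the most counts in all 10 libraries was piRNAclusterDB_2182, at chr19:8720116-8729994 (mm10, counted from 1). It spans Snhg1, a non-coding host gene whose introns hold snoRNAs, and part of Slc3a2, which encodes an amino acid transporter subunit. GENCODE M21 places 8 snoRNA transcripts within it, and none has a row of its own in the count table. Their sequences are shown because this cluster alone held 30.1% of all cluster counts. Capitals mark TGATGA within the first 20 bases (box C) and CTGA within the last 20 bases (box D), on the transcribed strand, from the reference transcripts of GRCm38.
Gm25855 (chr19:8723993-8724064, plus strand): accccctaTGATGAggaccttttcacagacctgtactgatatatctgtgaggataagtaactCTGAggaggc
Gm25894 (chr19:8724251-8724325, plus strand): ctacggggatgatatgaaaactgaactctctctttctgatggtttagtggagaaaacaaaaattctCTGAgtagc
Gm24452 (chr19:8724531-8724602, plus strand): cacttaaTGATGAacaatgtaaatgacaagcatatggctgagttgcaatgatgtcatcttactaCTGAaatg
Gm24453 (chr19:8724868-8724943, plus strand): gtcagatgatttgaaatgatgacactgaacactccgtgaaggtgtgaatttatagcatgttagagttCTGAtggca
Gm22744 (chr19:8725092-8725156, plus strand): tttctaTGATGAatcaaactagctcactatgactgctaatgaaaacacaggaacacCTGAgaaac
Gm22680 (chr19:8725341-8725409, plus strand): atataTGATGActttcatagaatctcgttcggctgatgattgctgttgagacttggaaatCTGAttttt
Gm23246 (chr19:8725594-8725660, plus strand): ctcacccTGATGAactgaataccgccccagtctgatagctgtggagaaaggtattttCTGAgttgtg
Snord22 (chr19:8725866-8725991, plus strand): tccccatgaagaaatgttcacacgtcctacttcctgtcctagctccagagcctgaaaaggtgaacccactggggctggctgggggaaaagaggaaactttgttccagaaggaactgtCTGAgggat
Both motifs in these windows were found in 33 of the 93 snoRNA transcripts inside clusters (35.5%) and in 309 of all 1507 snoRNA transcripts of the annotation (20.5%). The letters searched do not cover every form of the boxes.

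A further set belongs to 6 of the 16 clusters that were higher in the Eµ-deficient libraries (below), chosen to be shown after their values were seen. Snord68 lies in the Rpl13 cluster piRNAclusterDB_1874, Snord95 and Snord96a in the Rack1 cluster piRNAclusterDB_36, Snord100 in the Rps12 cluster piRNAclusterDB_2062, Snord82 in the Ncl cluster piRNAclusterDB_723 and Snord21 in the Rpl5 cluster piRNAclusterDB_2294. The last 3 lie in the Rpl7a cluster piRNAclusterDB_366.
Snord68 (chr8:123103038-123103123, plus strand): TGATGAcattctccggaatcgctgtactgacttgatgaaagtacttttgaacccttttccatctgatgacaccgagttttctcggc
Snord95 (chr11:48803139-48803206, plus strand): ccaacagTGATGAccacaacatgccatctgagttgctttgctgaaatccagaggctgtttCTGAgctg
Snord96a (chr11:48802032-48802112, plus strand): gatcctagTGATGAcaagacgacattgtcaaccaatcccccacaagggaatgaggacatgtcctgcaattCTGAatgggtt
Snord100 (chr10:23785750-23785823, minus strand): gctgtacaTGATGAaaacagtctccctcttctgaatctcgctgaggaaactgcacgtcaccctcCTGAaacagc
Snord82 (chr1:86356261-86356330, minus strand): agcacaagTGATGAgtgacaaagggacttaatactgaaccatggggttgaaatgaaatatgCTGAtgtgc
Snord21 (chr5:107904555-107904648, plus strand): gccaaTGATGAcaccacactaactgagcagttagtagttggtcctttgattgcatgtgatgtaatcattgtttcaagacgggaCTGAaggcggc
Gm23969 (chr2:26911261-26911334, plus strand): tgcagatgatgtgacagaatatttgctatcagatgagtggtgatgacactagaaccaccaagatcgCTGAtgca
Gm22879 (chr2:26912218-26912291, plus strand): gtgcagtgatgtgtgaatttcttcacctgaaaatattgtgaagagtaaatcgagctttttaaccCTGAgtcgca
Gm24134 (chr2:26912530-26912600, plus strand): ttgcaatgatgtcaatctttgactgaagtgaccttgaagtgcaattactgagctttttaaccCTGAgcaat

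Library totals ranged from 3482540.0 to 18144016 counts, and TMM scaling factors (below) from 0.546 to 1.41. The smallest totals were those of the second non-stimulated wt and 3'RR-deficient libraries. These same libraries departed from their replicates together: across 3987 rows the replicate differences of both genotypes correlated with r = 0.67 (0.27 across 2208 clusters), as a description, since rows share libraries. The table does not give read lengths or positions within a cluster, so whether a read has the length of a piRNA was not tested. Of 6 germ line microRNAs taken as markers, 5 had a row, and their summed level was 0 to 6.53 CPM in every library (CPM being counts relative to library size, scaled by the trimmed mean of M-values, TMM). All 5 B-cell microRNAs were detected, with a summed level of 58840.0 to 231500.0 CPM. No germ line microRNA exceeded 34 counts in a library, so the B-cell markers were present and the germ line markers were at or near 0.

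The clusters took a similar share of the counts in wt and 3'RR-deficient cells. In wt it was 8.38% and 14.6% of the library without LPS and 12.5% and 10.5% with LPS. In 3'RR-deficient cells it was 9.13% and 12.4% without LPS and 12.8% and 8.89% with LPS. The group means were 11.5% ± 4.43 (SD, n = 2), 11.5% ± 1.46, 10.8% ± 2.32 and 10.8% ± 2.74 in the same order, so the replicates of a group differed by more than the groups did. In the Eµ-deficient libraries the share was 17.5% (Wilson 95% confidence interval 17.51 to 17.55) without LPS and 17.6% (17.56 to 17.59) with LPS, above each of the other 8 libraries. This order depended on the denominator: of the counts outside microRNA rows, clusters took 44.1% and 36.2% in the Eµ-deficient libraries and 36.9% to 48.0% in the other 8, and the Eµ-deficient LPS library was then the lowest of all. Both intervals cover counting error only, as amplified reads with no molecular identifier are not separate molecules.

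**Figure D1:**
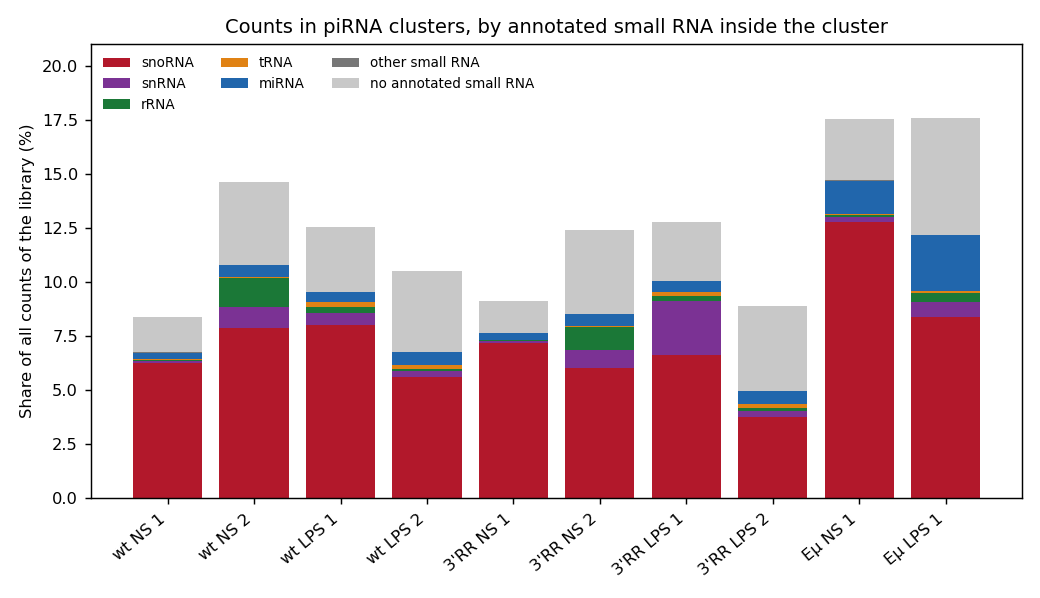
Share of each library's counts (%, vertical axis) that fell in piRNA clusters, one bar per library (horizontal axis), stacked by the annotated small RNA inside the cluster. The snoRNA-holding clusters took 42.5% to 78.5% of the cluster counts of a library, the rRNA-holding ones were widest in both second non-stimulated libraries, and the snRNA-holding ones in the first 3'RR-deficient LPS library.

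Few clusters carried most of the counts. All 2389 had at least 8 counts over the 10 libraries, with a median of 400.0 counts. The first cluster held 30.1% of the 12828128 cluster counts, the first 10 held 60.0%, the first 50 held 82.4% and the first 100 held 86.5%. piRNAclusterDB_2182 stood at 57591 and 27268 CPM in the wt non-stimulated libraries, 44411 and 29830.0 in wt with LPS, 82564 and 20627 in non-stimulated 3'RR-deficient libraries, 39833 and 18563 in their LPS counterparts, and 76399 and 25663 in Eµ-deficient cells without and with LPS. The conditions overlapped in wt and in 3'RR-deficient cells, and it made up 18.1% to 49.4% of the cluster counts of a library.

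Of the 10 clusters with the highest mean level, 6 hold a snoRNA gene, and 1 of the other 4 holds an snRNA gene. Levels are compared here per kilobase (kb) of cluster, as the mean over the 10 libraries. piRNAclusterDB_2182 had 4279 CPM per kb. piRNAclusterDB_1020 (chr16:23104096-23115231) spans Eif4a2, a translation initiation helicase, holds 6 small RNAs including Snord2 and Snora81, and had 791 CPM per kb. piRNAclusterDB_447 (chr2:130273494-130282847) spans Nop56, which encodes a core protein of box C/D particles, and had 309.6 CPM per kb. piRNAclusterDB_113 (chr11:87418058-87467018), within Tex14, holds U3 snoRNA genes such as Rnu3b1 and the U1 snRNA gene Rnu1a1 and had 100.4 CPM per kb. The Rpl13 cluster piRNAclusterDB_1874 had 498 CPM per kb and the Rack1 cluster piRNAclusterDB_36 had 484. Among these first 10, piRNAclusterDB_407 in Atf2 (425 CPM per kb) and piRNAclusterDB_2006 over Kdm1a and Luzp1 (172) hold no annotated small RNA. piRNAclusterDB_1132 over H1fx and Rab7 had 82.0 CPM per kb and holds a transcript of type miRNA, Gm47286, and piRNAclusterDB_143, with Rnu2-10 of the spliceosome, had 37.7. The means of piRNAclusterDB_1874, piRNAclusterDB_36, piRNAclusterDB_407, piRNAclusterDB_2006 and piRNAclusterDB_1132 were set largely by the Eµ-deficient libraries, which lay above the other 8 in each. None of the first 10 clusters differed between wt and 3'RR-deficient cells or with LPS at the threshold used below.

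The clusters ranged from 5000.0 to 142046 bases, with a median of 8572 bases. Counts rose with length (Spearman rho 0.49 across 2389 clusters, 0.49 across the 2303 that overlap no row of another type), and counts per kb much less so (rho 0.17 and 0.16). The median was 210.5 counts in the 598 shortest clusters and 855 counts in the 597 longest, but 36.3 and 49.4 counts per kb. The longest cluster, piRNAclusterDB_2130 (chr10:86532756-86674801), had 0.194 CPM per kb. The 2 shortest, both of 5000.0 bases, were piRNAclusterDB_1811 (chr8:88746881-88751880, in Cyld) with 0.517 CPM per kb and piRNAclusterDB_1897 (chr4:37611004-37616003) with 0.0127, and the latter was too low to test. By chromosome, chromosome 19 held 30.5% of the cluster counts in 63 clusters, and piRNAclusterDB_2182 alone made up 98.8% of these. Chromosome 16 followed a similar pattern, with 69.9% of its cluster counts in piRNAclusterDB_1020. Chromosome 2 had the most clusters, 205, with 7.77% of the counts.

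**Figure D2:**
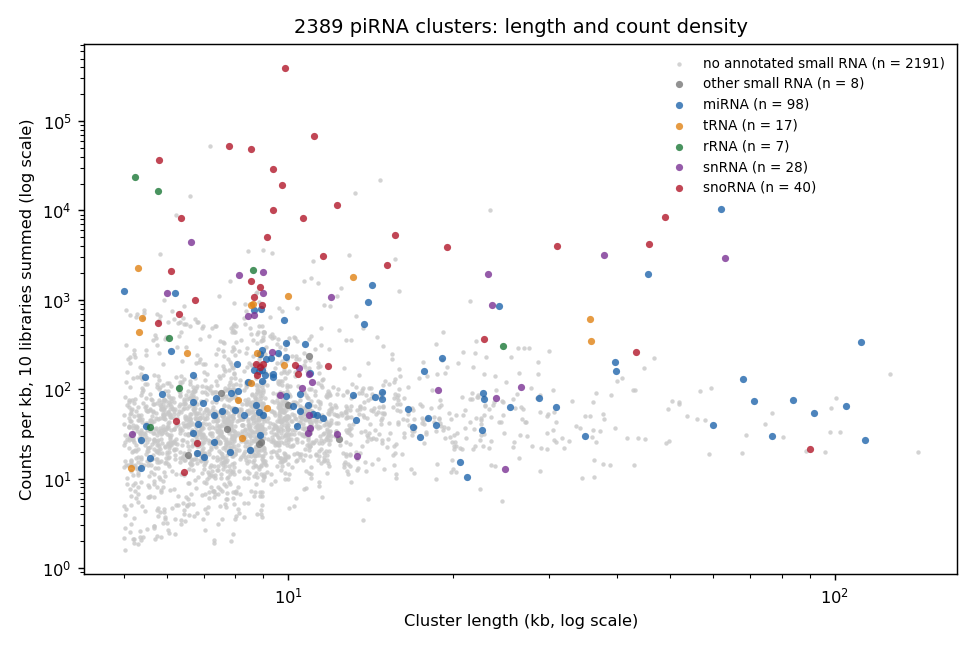
Length (kb, horizontal log axis) and counts per kb over the 10 libraries summed (vertical log axis) of the 2389 clusters, one point per cluster, coloured by the annotated small RNA inside. The snoRNA-holding clusters lie mostly above the grey clusters with no annotated small RNA, and piRNAclusterDB_2182 is the highest point.

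Clusters overlapped rows of other types in a selective way. No cluster overlapped another, and all 2389 were listed on the minus strand, including those whose host genes and snoRNAs lie on the plus strand. By at least 1 base on either strand, 86 clusters shared sequence with 232 other rows: 185 microRNA rows in 70 clusters, 46 tRNA rows in 18 clusters, and Terc, the telomerase RNA, in piRNAclusterDB_1273. In 85 of the 86 clusters another row lay wholly inside, and on the minus strand alone 42 clusters overlapped another row. No snoRNA, snRNA or rRNA row lay in a cluster. In GENCODE M21, 93 snoRNA transcripts lie inside clusters and 0 of them had a row, whereas 616 of the 1414 outside had one (43.6%). The same held for snRNA, with 0 of 46 inside and 783 of 1337 outside (58.6%), and for rRNA, with 0 of 12 inside and 249 outside (72.8% of those outside). For tRNA it did not, since 44 of 44 tRNA genes of RefSeq inside clusters had a row.

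A cluster count was not the sum of the rows within it. In 41 of the 86 overlapping clusters the cluster count, summed over libraries, was below the count of the other rows inside, and this was so in 16 of the 18 clusters with a tRNA row (where rows of tRNA copies share reads, as given below). piRNAclusterDB_1234, in Smc4, had 6271 counts, while miR-16-5p and miR-15b-5p inside it had 1551947 and 601087. Most reads of both microRNAs were therefore not counted again in the cluster row.

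The clusters were grouped by the annotated small RNA inside them, a grouping made after the counts had been seen. A cluster with several kinds was put in the first that applied of snoRNA, rRNA, snRNA, tRNA, microRNA and other small RNA. The later classes therefore do not count every cluster that holds such an RNA. The 40 snoRNA-holding clusters took 59.2% of the cluster counts and made up 11 of the 20 and 19 of the 50 clusters with the most counts. The 98 clusters in the microRNA class took 7.81%, the 28 in the small nuclear RNA class (snRNA, of the spliceosome) 3.85%, the 7 in the ribosomal RNA (rRNA) class 1.92% and the 17 in the tRNA class 0.856%. The 8 in the class of other small RNAs took 0.0399%. The 2191 clusters with no annotated small RNA took 26.3%, and they held 5 of the 20 clusters with the most counts. In wt the snoRNA-holding clusters took 74.8% and 53.8% of the cluster counts without LPS and 64.0% and 53.7% with LPS. In 3'RR-deficient cells they took 78.5% and 48.4% without and 51.8% and 42.5% with LPS, and in Eµ-deficient cells 73.0% and 47.7%. The conditions overlapped in wt and in 3'RR-deficient cells.

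Some classes followed single libraries rather than groups. The rRNA-holding clusters took 9.05% and 8.71% of the cluster counts in the second wt and the second 3'RR-deficient non-stimulated libraries and 0.455% to 2.34% elsewhere. piRNAclusterDB_1875, which holds Rn5s, a gene of the 5S rRNA of the large ribosomal subunit, stood at 4795 and 3823 CPM in those libraries against 246 and 309 CPM in their replicates. The rRNA rows outside clusters moved with them, at 0.347% and 0.266% of the library against 0.00876% and 0.00743%. In a like manner the snRNA-holding clusters reached 19.8% of the cluster counts in the first 3'RR-deficient LPS library and at most 6.84% elsewhere. piRNAclusterDB_143 stood there at 14097 CPM against 602 CPM in its replicate, and no other library exceeded 2014 CPM.

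Some pairs of clusters kept a nearly fixed ratio of counts across the libraries and others did not. piRNAclusterDB_1875 to piRNAclusterDB_1876, both with 5S rRNA genes on chromosome 8, was 1.28 to 1.33. piRNAclusterDB_143 on chromosome 11 to piRNAclusterDB_707 on chromosome 1, which both hold snRNA transcripts, was 1.41 to 1.76. piRNAclusterDB_1132 on chromosome 6 to piRNAclusterDB_2006 on chromosome 4 was 1.92 to 2.62, although both were several times higher in the Eµ-deficient libraries. piRNAclusterDB_407 was also higher in the Eµ-deficient libraries, but its ratio to piRNAclusterDB_2006 varied from 1.05 to 2.13, lowest in the Eµ-deficient libraries, and that of piRNAclusterDB_1132 to it from 1.09 to 1.88. piRNAclusterDB_2182 to piRNAclusterDB_1020, both with snoRNAs, varied from 2.96 to 8.10.

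The first comparison asked which clusters respond to LPS. Tests were edgeR quasi-likelihood tests fitted to all row types together, with Benjamini-Hochberg adjustment over all rows tested and an adjusted p under 0.05 as the threshold, and a call is a row past it. In wt cells 0 of 2208 tested clusters were called, against 0% of all 3987 rows tested, with 134 clusters at an unadjusted p under 0.05, and the lowest adjusted p was 0.161. In 3'RR-deficient cells 0 clusters were called (0% of all rows), with 139 at an unadjusted p under 0.05, and the lowest adjusted p was 0.222. The DESeq2 Wald test called 22 clusters among 123 rows called in wt, and 27 among 113 in 3'RR-deficient cells. The filter on low counts had removed 181 clusters from these fits.

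Over both genotypes together, 39 clusters were called, 36 higher and 3 lower with LPS. They were 1.77% of the tested clusters, while 4.51% of all rows were called, 2.16% higher and 2.36% lower. The median log2 change was 0.11 over the tested clusters and -0.05 over all rows. In 38 of the 39 calls the 4 LPS libraries did not overlap the 4 non-stimulated ones, and over all 2208 tested clusters this was so for 198 that lay higher and 39 that lay lower with LPS. The called clusters were of low level, with means of 2.66 to 225.9 CPM and a median of 14.8, and held 1.06% of the cluster counts. The count of calls rested on each library: it was 65 without the first wt non-stimulated library, 19 without the second, 7 and 6 without the first and second wt LPS libraries, 11 and 12 without the 3'RR-deficient non-stimulated libraries, and 18 and 11 without those with LPS. Without both second non-stimulated libraries it was 44. It also depended on the scaling, with 80 calls, 79 of them higher, under total count scaling and 171 calls, 170 of them higher, with factors from microRNA rows.

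Of the 4 clusters with the largest increase, each stayed past the threshold whichever library was left out. piRNAclusterDB_123 (chr11:95953001-95966734), in Igf2bp1, which encodes an mRNA-binding protein, stood at 8.13 and 6.75 CPM in the wt non-stimulated libraries and 10.3 and 7.54 in the 3'RR-deficient ones, against 162 and 187 CPM in the wt LPS libraries and 67.4 and 122 in the 3'RR-deficient LPS libraries. The LPS and non-stimulated libraries did not overlap, with a log2 change of 3.87 ± 0.43 (SE, adjusted p = 0.00721). It holds Mir3063, whose mature arms have no row here that overlaps the cluster, and whose RefSeq sequences (GRCm38.p6) are shown with the seed, bases 2 to 8, in capitals.
mmu-miR-3063-5p (chr11:95963347-95963367, minus strand): uGGAGAUCagguuugcacacu
mmu-miR-3063-3p (chr11:95963304-95963325, minus strand): uGAGGAAUccugaucucucgcc

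piRNAclusterDB_1273 (chr3:96409213-96414602), which holds a histidine tRNA gene and the 3′ part of Terc, stood at 3.46 and 4.09 CPM in the wt non-stimulated libraries and 4.61 and 3.39 in the 3'RR-deficient ones, against 73.3 and 33.8 CPM in the wt LPS libraries and 96.6 and 32.5 in the 3'RR-deficient LPS libraries. The conditions did not overlap, with a log2 change of 3.86 ± 0.51 (SE, adjusted p = 0.00834). piRNAclusterDB_1072 (chr6:29388406-29394928), with a proline tRNA gene beside Opn1sw, the short-wave cone opsin, stood at 2.13 and 1.64 CPM in the wt non-stimulated libraries and 5.53 and 3.20 in the 3'RR-deficient ones, against 23.3 and 19.8 CPM in the wt LPS libraries and 43.0 and 34.5 in the 3'RR-deficient LPS libraries. It too had no overlap, with a log2 change of 3.23 ± 0.37 (SE, adjusted p = 0.00721). piRNAclusterDB_1715 (chr15:98923526-98929238), with no annotated gene, was low throughout, at 0.610 and 0.205 CPM in the wt non-stimulated libraries and 0.769 and 0.565 in the 3'RR-deficient ones, against 7.39 and 6.15 CPM in the wt LPS libraries and 6.14 and 4.22 in the 3'RR-deficient LPS libraries. The conditions did not overlap here either, with a log2 change of 3.32 ± 0.49 (SE, adjusted p = 0.0116).

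The 3 lower calls were smaller or of low level. piRNAclusterDB_221 (chr7:28375109-28383601) spans Zfp36, whose protein speeds the decay of mRNAs, and stood at 55.8 and 69.0 CPM in the wt non-stimulated libraries and 83.8 and 71.2 in the 3'RR-deficient ones, against 26.6 and 27.7 CPM in the wt LPS libraries and 28.1 and 26.4 in the 3'RR-deficient LPS libraries. The conditions were well separated, with a log2 change of -1.45 ± 0.32 (SE, adjusted p = 0.0369). piRNAclusterDB_290 (chr7:97346465-97351863), with Kctd21, had a log2 change of -2.78 ± 0.54 (SE, adjusted p = 0.0235). piRNAclusterDB_1872 (chr8:122835001-122843031), within Gm20388, had a log2 change of -1.30 ± 0.32 (SE, adjusted p = 0.0482). When single libraries were left out, these kept their call in 1, 4 and 1 of 8 fits, in the order named, and adjusted p-values reached 0.123, 0.0802 and 0.172.

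By content, most calls fell in clusters with no annotated small RNA, 26 higher and 3 lower of 2012 tested, but the share called was largest among tRNA-holding clusters. Of the 16 tested, 7 were called higher (43.8%, against 2.16% of all rows) and 14 had a log2 change above 0, with a median of 1.63 against -0.05 over all rows. The median was 1.61 to 2.21 under the other scalings, and 3 to 8 were called when single libraries were left out. Besides piRNAclusterDB_1273 and piRNAclusterDB_1072, these were chosen to be named after their values were seen. piRNAclusterDB_880 (chr13:23425643-23438803), with 10 tRNA rows, stood at 43.2 and 35.6 CPM in the wt non-stimulated libraries and 97.9 and 32.6 in the 3'RR-deficient ones, against 621 and 205 CPM in the wt LPS libraries and 595 and 375 in the 3'RR-deficient LPS libraries, with a log2 change of 3.09 ± 0.55 (SE, adjusted p = 0.0188). piRNAclusterDB_101 (chr11:79680621-79716344), in Rab11fip4 with a threonine tRNA, stood at 89.2 and 30.5 CPM in the wt non-stimulated libraries and 72.0 and 36.0 in the 3'RR-deficient ones, against 528 and 297 CPM in the wt LPS libraries and 481 and 254 in the 3'RR-deficient LPS libraries, with a log2 change of 2.72 ± 0.51 (SE, adjusted p = 0.0223). piRNAclusterDB_877, piRNAclusterDB_2243 and piRNAclusterDB_2137 had log2 changes of 2.85, 2.93 and 1.59. With single libraries left out, piRNAclusterDB_880 kept its call in 7 of 8 fits, piRNAclusterDB_101 in 5, piRNAclusterDB_2243 in 4, piRNAclusterDB_877 in 2 and piRNAclusterDB_2137 in 1.

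The tRNA rows inside the clusters had a lower median change than the clusters themselves. Of the 45 tested tRNA rows inside any cluster, 1 was called higher and 23 had a log2 change above 0, with a median of 0.07. Among all 423 tested tRNA rows 8 were called (1.89%), with a median of 0.36. Within the 7 called clusters, 13 of 23 tRNA rows had a log2 change above 0. The proline tRNA row within piRNAclusterDB_1072, chr6.tRNA46-ProAGG, stood at 370.1 and 437 CPM in the wt libraries without LPS, 600.5 and 613 in the 3'RR-deficient libraries without LPS, 1078 and 623 in wt LPS libraries, and 553 and 643 in 3'RR-deficient LPS libraries. Those values overlapped between conditions, with a log2 change of 0.44 (adjusted p = 0.559), while the cluster row around it rose. The histidine tRNA row within piRNAclusterDB_1273 stood at 85.2 and 16.2 CPM in the wt libraries without LPS, 69.6 and 19.2 in the 3'RR-deficient libraries without LPS, 125 and 97.9 in wt LPS libraries, and 98.8 and 108 in 3'RR-deficient LPS libraries. Its log2 change was 1.10 (adjusted p = 0.256) and that of Terc was 0.67 (adjusted p = 0.442). The called tRNA row was chr13.tRNA101-TyrGTA in piRNAclusterDB_880, with a log2 change of 2.00 (adjusted p = 0.0480). It is one of 5 tyrosine tRNA rows there with changes of 1.92 to 2.00. Rows of tRNA copies were not independent: the AspGTC rows chr13.tRNA991 and chr13.tRNA993 in piRNAclusterDB_877 and chr5.tRNA1315 and chr5.tRNA1317 in piRNAclusterDB_2327 had 12062 or 12063 counts each in the first wt non-stimulated library, closer than separate reads would be, so a sum over tRNA rows can hold the same reads more than once. Summed over its tRNA rows, piRNAclusterDB_877 was lower with LPS in all 4 libraries than in the 4 without, while the cluster itself was called higher. The difference between a cluster and the rows inside it was not tested.

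**Figure D3:**
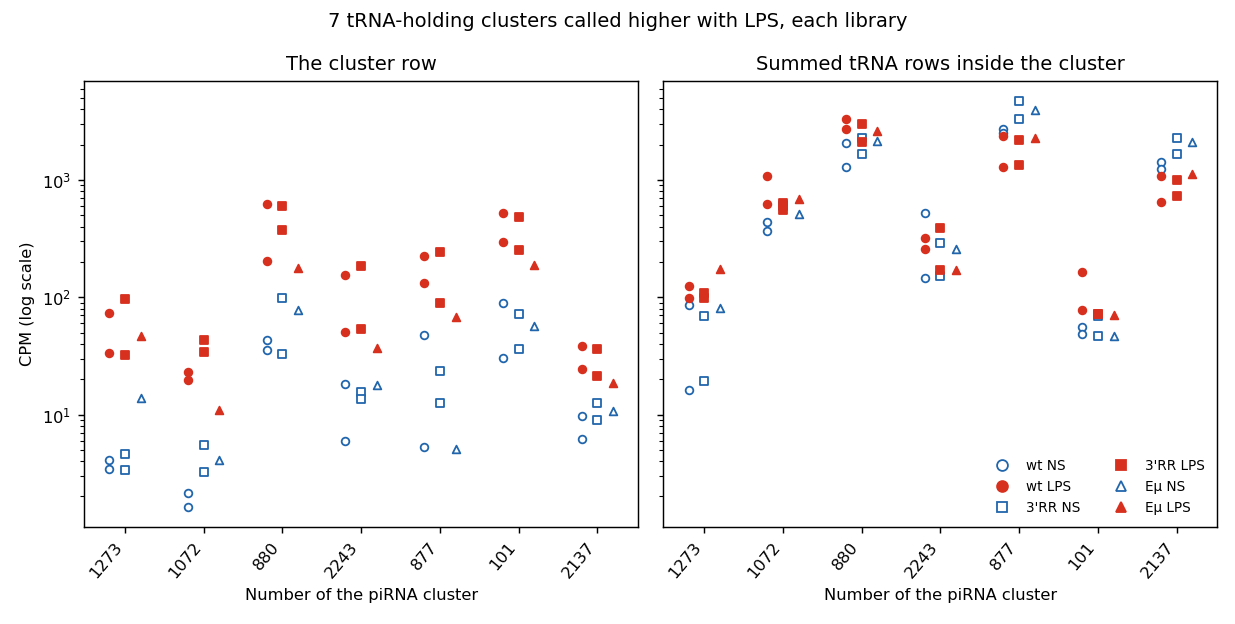
CPM (vertical log axis) of the 7 tRNA-holding clusters called higher with LPS (left, by cluster number) and of the summed tRNA rows inside each (right), one symbol per library. Filled red symbols (LPS) lie above open blue symbols (non-stimulated) of wt and 3'RR-deficient cells in every cluster on the left, while on the right the conditions overlap in piRNAclusterDB_1072, piRNAclusterDB_2243 and piRNAclusterDB_880, red lies above blue in piRNAclusterDB_101 and piRNAclusterDB_1273, and red lies below blue in piRNAclusterDB_877 and piRNAclusterDB_2137.

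The medians of the other classes were nearer to 0 or negative. Of 39 tested snoRNA-holding clusters 0 were called by edgeR, with 10 at an unadjusted p under 0.05 and 8 called lower by the DESeq2 Wald test (edgeR called 4 lower and 1 higher without the filter and 2 lower with a replicate block), and 4 had a log2 change above 0, with a median of -0.68. The median was -0.41 with total count scaling and -0.16 with factors from microRNA rows, where the median over all rows was 0.35 and 0.60. The 7 rRNA-holding clusters all had a log2 change below 0 (median -1.68, and -1.42 to -1.85 under the other scalings) and 0 were called by edgeR, with 2 at an unadjusted p under 0.05 and 1 called lower by the DESeq2 Wald test, and without the filter edgeR called 5 lower. This direction rested on the second non-stimulated libraries: without both of them the median was 1.09 and 5 of the 7 were higher with LPS. Of 98 microRNA-holding clusters 3 were called higher, with a median of 0.19. One was piRNAclusterDB_1234 (chr3:69005002-69010007) in Smc4, named after its values were seen, which stood at 23.4 and 13.3 CPM in the wt non-stimulated libraries and 20 and 11.7 in the 3'RR-deficient ones, against 113 and 121 CPM in the wt LPS libraries and 40.7 and 87.7 in the 3'RR-deficient LPS libraries, with a log2 change of 2.24 ± 0.41 (SE, adjusted p = 0.0195). It kept its call in 5 of 8 fits with a library left out. The microRNAs encoded inside it had a log2 change of -0.84 for miR-16-5p and -1.76 for miR-15b-5p (adjusted p = 0.559 and 0.0515), and of 0.36 for miR-16-2-3p (adjusted p = 0.848). Another was piRNAclusterDB_1074 (chr6:30161929-30170356), likewise named after its values were seen, which holds Mir182, Mir96 and Mir183, with a log2 change of 1.60 ± 0.38 (SE, adjusted p = 0.0478). It kept its call in only 1 of 8 fits with a library left out, where its adjusted p was 0.0326 to 0.103. Here the rows inside went the same way, with 1.64 for miR-183-5p (adjusted p = 0.0446), 2.20 for miR-182-5p (0.0920) and 2.24 for miR-96-5p (0.0797).

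The Eµ-deficient libraries were not part of this fit. From non-stimulated to LPS, 33 of the 36 higher calls were also higher and 3 of the 3 lower calls were lower there, whereas 1141 of the 2208 tested clusters were higher. piRNAclusterDB_123 stood at 5.20 CPM without and 37.4 with LPS and piRNAclusterDB_1273 at 13.9 CPM without and 46.7 with LPS. piRNAclusterDB_1715 went the other way, at 3.02 CPM without and 1.02 with LPS.

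The summed marker microRNAs of other cell types were lower with LPS in wt and 3'RR-deficient libraries. The summed level of 3 erythroid microRNAs was 4235 and 1536 CPM in wt and 3330.0 and 4190.0 CPM in 3'RR-deficient non-stimulated cells, and 227, 63.4, 717 and 174 CPM in the same order with LPS. The myeloid miR-223-3p was at 284 to 1741 CPM without and 35 to 95.8 CPM with LPS in these libraries, and 3 stromal and endothelial microRNAs were at 117 to 933 and 35.2 to 73.6 CPM. Of these 7 microRNAs, miR-145a-5p was at 0 counts in both 3'RR-deficient LPS libraries. Their part in the LPS result was not tested, and in bulk samples fewer cells of a type and less RNA per cell cannot be told apart.

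**Figure D4:**
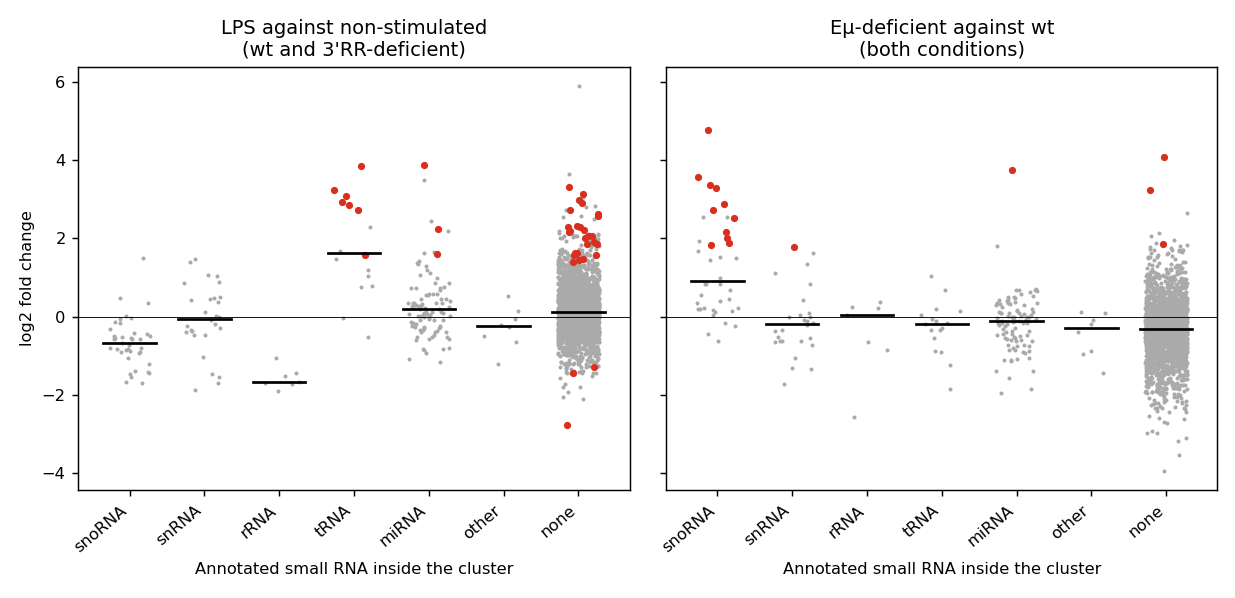
Log2 fold change (vertical axis) of each tested cluster by the annotated small RNA inside it (horizontal axis), for LPS against non-stimulated over wt and 3'RR-deficient cells (left) and for Eµ-deficient against wt over both conditions (right). Red points are calls and black lines are medians: 7 tRNA-holding clusters are called on the left and 11 snoRNA-holding clusters on the right.

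The second comparison asked whether the loss of the 3'RR changes any cluster. Without LPS 0 clusters were called by edgeR or by the DESeq2 Wald test (0% of all rows), with 39 at an unadjusted p under 0.05. With LPS 0 were called by either tool (0% of all rows), with 17 at an unadjusted p under 0.05. Over both conditions 0 were called (0.0251% of all rows, 1 row that is no cluster), with 48 at an unadjusted p under 0.05, and the DESeq2 Wald test called 1. For the interaction of genotype and LPS 0 were called by either tool (0% of all rows), with 20 at an unadjusted p under 0.05. The median log2 difference over both conditions was -0.04 over the tested clusters and -0.03 over all rows.

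The clusters with the smallest p are given as values, with log2 changes of 3'RR-deficient relative to wt cells. With a replicate block within culture condition, 1 of the named results came to pass the threshold and 11 did not change. piRNAclusterDB_2315 (chr5:118258421-118268705), which holds the snoRNA gene Gm25076, stood at 21.1 and 12.1 CPM without and 11.8 and 19.1 CPM with LPS in wt, against 4.0 and 5.47 CPM without and 2.49 and 3.28 CPM with LPS after loss of the 3'RR. The 4 values of one genotype did not overlap those of the other, yet the reported edgeR fit, which has no block, did not pass, with a log2 change of -2.14 ± 0.37 (SE, adjusted p = 0.288). In Eµ-deficient cells it stood at 73.5 CPM without and 24.3 with LPS. piRNAclusterDB_1277 (chr3:96621912-96629522), with Lix1l, stood at 6.91 and 3.07 CPM without and 5.85 and 7.88 CPM with LPS in wt, against 0.922 and 0.942 CPM without and 1.16 and 3.34 CPM with LPS after loss of the 3'RR, with a log2 change of -1.99 ± 0.46 (SE, adjusted p = 0.744). piRNAclusterDB_483 (chr2:155003990-155010614) had a log2 change of -2.62 ± 0.78 (SE, adjusted p = 0.999). With LPS, piRNAclusterDB_406 (chr2:72632112-72637455) had a log2 change of 3.08 ± 0.87 (SE, adjusted p = 1.00). Without LPS, piRNAclusterDB_1428 (chr9:88668001-88675248) was at 0 counts in both 3'RR-deficient libraries and at 0.813 and 2.05 CPM in wt. For the LPS response, piRNAclusterDB_585 (chr17:27748097-27755788) had an interaction of 2.60 on the log2 scale (adjusted p = 1.00).

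Igh itself lies on chromosome 12, and the deleted enhancers lie within or beside its constant region (chr12:113254830-113422730). Of 77 clusters on chromosome 12, 13 were within 10 Mb of it and 66 were tested. None of the 66 was called between wt and 3'RR-deficient cells in any comparison, and the median log2 difference over both conditions was 0.08. The comparison of Eµ-deficient cells with wt (below) tested 70 clusters of this chromosome and called 0. Of these 12 were higher, with a median log2 difference of -0.42, while over all 2311 clusters tested there 736 were higher, with a median of -0.30. The nearest clusters were piRNAclusterDB_1553 in Brf1 (chr12:112954275-112961271), piRNAclusterDB_1552 in Inf2 (chr12:112609331-112617929) and piRNAclusterDB_1551 in Traf3 (chr12:111258219-111269007). piRNAclusterDB_1553, at 0.294 Mb, stood at 2.85 and 2.46 CPM without and 3.35 and 3.73 CPM with LPS in wt, against 2.46 and 3.20 CPM without and 3.32 and 5.22 CPM with LPS in 3'RR-deficient cells. Those ranges overlapped, with a log2 change of 0.15 ± 0.35 (SE, adjusted p = 0.999). The corresponding log2 differences were -0.38 ± 0.43 (SE) for piRNAclusterDB_1552 and -0.17 ± 0.32 for piRNAclusterDB_1551. The single call on this chromosome was higher with LPS, piRNAclusterDB_1535 in Kcnk10 (chr12:98368280-98467017), named after its values were seen, with a log2 change of 1.40 ± 0.32 (SE, adjusted p = 0.0396), and it was called in 0 of the 8 fits with a library left out, where its adjusted p was 0.0525 to 0.1.

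The third comparison set the Eµ-deficient libraries against wt over both conditions, and no test within a condition was run. Of 2311 tested clusters 16 were called, all higher in Eµ-deficient cells. They were 0.692% of the tested clusters, while 3.43% of all 4554 rows were called, 3.34% higher and 0.0878% lower. The median log2 difference was -0.30 over the tested clusters and -0.11 over all rows. Both Eµ-deficient libraries lay above all 8 other libraries in each of the 16. The test that picked these clusters favours that order, and its share over all tested clusters was not counted. They included abundant clusters, 5 of the first 10 and 12 of the first 50, and held 23.1% of all cluster counts. The count was 5 without the Eµ-deficient non-stimulated library and 10 without the LPS one. It was 10 without the first wt non-stimulated library, 10 and 9 without the wt LPS libraries, and 10 without the first 3'RR-deficient non-stimulated library. Without both second non-stimulated libraries of wt and 3'RR-deficient cells it was 41.

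The calls fell mainly on host genes of snoRNAs. Of 40 tested snoRNA-holding clusters 11 were called higher and 36 had a log2 difference above 0, with a median of 0.92 (0.53 to 0.88 under the other scalings). Without the Eµ-deficient non-stimulated library 1 snoRNA-holding cluster was called, with a median of 0.59 over the class, and without the LPS one 5 were called. Leaving out a wt or 3'RR-deficient library gave 6 to 13 calls. Among 322 tested snoRNA rows outside clusters 44 were called higher and 1 lower, with a median of 1.06, and the median of the clusters had the same sign.

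The largest difference was that of piRNAclusterDB_1874 (chr8:123099106-123106891), over Rpl13, a protein of the large ribosomal subunit, with Snord68 in an intron. It stood at 28150.0 CPM without and 6162 with LPS in Eµ-deficient cells, and at 689 and 748 without and 456 and 279 with LPS in wt. Both Eµ-deficient libraries were far above the range of 279 to 925 CPM in the other 8, with a log2 change of 4.78 ± 0.55 (SE, adjusted p = 0.00139). piRNAclusterDB_366 (chr2:26885142-26930973), over Rpl7a and the Surf genes, stood at 11480.0 CPM without and 2946 with LPS in Eµ-deficient cells, and at 775 and 929 without and 327 and 256 with LPS in wt. Its range elsewhere was 256 to 972 CPM, with a log2 change of 3.57 ± 0.46 (SE, adjusted p = 0.00183).

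The other snoRNA-holding calls were named after their values were seen. piRNAclusterDB_36 (chr11:48798466-48807012), over Rack1, a ribosome-bound scaffold, stood at 24477 CPM without and 5710.3 with LPS against 522 to 2408 CPM in the other 8 libraries, with a log2 change of 3.29 ± 0.67 (SE, adjusted p = 0.0164). piRNAclusterDB_2062 (chr10:23784471-23790271), over Rps12 of the small ribosomal subunit, stood at 11270.0 CPM without and 3397 with LPS against 390.5 to 1329 CPM, with a log2 change of 3.36 ± 0.52 (SE, adjusted p = 0.00334). piRNAclusterDB_723 (chr1:86342031-86373009), over Ncl, which encodes nucleolin, stood at 4548 CPM without and 2092 with LPS against 370.5 to 798 CPM, with a log2 change of 2.51 ± 0.43 (SE, adjusted p = 0.00619). In these, as in piRNAclusterDB_1874 and piRNAclusterDB_366, the library without LPS was the higher of the Eµ-deficient pair. The Rpl5 cluster piRNAclusterDB_2294 had a log2 difference of 2.87, the Atp5b cluster piRNAclusterDB_2154 of 2.73, the Snhg5 cluster piRNAclusterDB_1426 of 2.15, the Rpl4 cluster piRNAclusterDB_1407 of 2.02 and the Rps3 cluster piRNAclusterDB_291 of 1.89. The Phb2 cluster piRNAclusterDB_1164, at 35.1 CPM without and 78.2 with LPS, was low and had a difference of 1.83. With single libraries left out, the snoRNA-holding calls other than piRNAclusterDB_1874 kept their call in 2 to 9 of 10 fits.

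**Figure D5:**
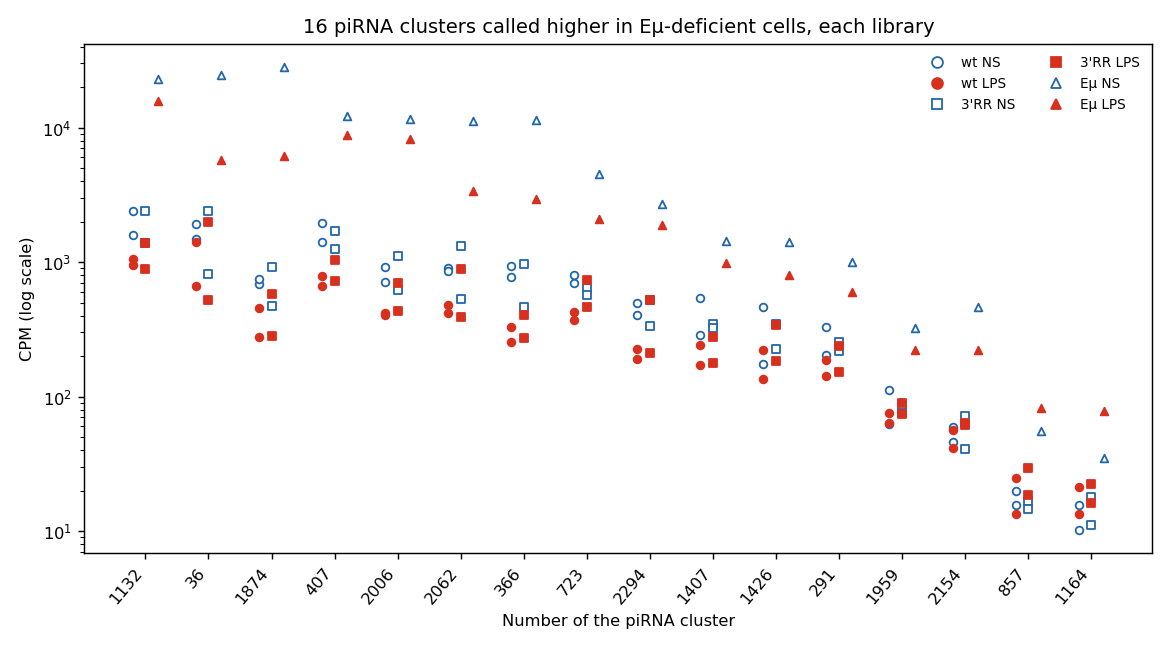
CPM (vertical log axis) of the 16 clusters called higher in Eµ-deficient cells (horizontal axis, by cluster number, in order of mean level), one symbol per library. The triangles of both Eµ-deficient libraries lie above the circles (wt) and squares (3'RR-deficient) in every cluster, and the triangle without LPS is the higher of the pair in all but the lowest pair, piRNAclusterDB_857 and piRNAclusterDB_1164.

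Among the other 5 calls were some of the most abundant clusters. piRNAclusterDB_2006 (chr4:136538204-136552912), over the histone demethylase gene Kdm1a and over Luzp1, stood at 11682 CPM without and 8238 with LPS in Eµ-deficient cells, and at 927 and 713 without and 404 and 417 with LPS in wt. The other 8 libraries ranged from 404 to 1118 CPM, with a log2 change of 4.08 ± 0.45 (SE, adjusted p = 0.00138). piRNAclusterDB_1132 (chr6:87940020-88002030), over H1fx and Rab7 and with the miRNA-type transcript Gm47286, stood at 22974 CPM without and 15822 with LPS against 893 to 2411 CPM elsewhere, with a log2 change of 3.75 ± 0.46 (SE, adjusted p = 0.00155). piRNAclusterDB_407 (chr2:73863209-73870399), in Atf2, a transcription factor gene, stood at 12212 CPM without and 8805 with LPS against 669 to 1969 CPM, with a log2 change of 3.23 ± 0.43 (SE, adjusted p = 0.00189). Here the Eµ-deficient libraries were closer to each other than in the clusters above, and these 3 and piRNAclusterDB_1874 were the calls that held whichever library was left out. The remaining calls were piRNAclusterDB_857, with a log2 difference of 1.87, and the snRNA-holding piRNAclusterDB_1959, with 1.78.

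The abundant clusters were not all higher. piRNAclusterDB_2182 had a log2 difference of 0.20 (adjusted p = 0.931), piRNAclusterDB_1020 of -0.43 (adjusted p = 0.810) and the U3 cluster piRNAclusterDB_113 of -0.16 (adjusted p = 0.929). No cluster was called in both the LPS and the Eµ comparison. The summed erythroid microRNAs were at 9243 CPM in the Eµ-deficient non-stimulated library and 1817 CPM in the LPS one, each above both wt libraries of the same condition, and miR-223-3p was at 5765 and 252 CPM, likewise above. The 3 stromal and endothelial microRNAs were at a summed 614 and 428 CPM, against 933 and 117 without and 73.6 and 36.0 with LPS in wt. In the Eµ-deficient LPS library this sum was mostly miR-143-3p (9223 counts). miR-145a-5p had 231 counts there against 8 and 1 in the wt LPS libraries. miR-126a-3p went the other way, with 157 counts against 219 and 416 in those smaller libraries. The part of these markers in the Eµ result was not tested, and the genotype cannot be told apart from what else sets these 2 libraries apart.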

How the data were processed

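Small RNA libraries (17 PCR cycles, 75 nt reads) were made from total RNA of 10 cultures. The authors deposited a table of whole-number read counts per feature and library, without normalization. The submitters' processing notes name cutadapt 1.2.1, Bowtie2 and mm10. How reads matching several places or several features were assigned is not given in the sources used here, and it decides whether a cluster also counts reads of the small RNAs inside it. Positions were checked against GRCm38: 1085 of 1093 mature microRNAs and 2494 of 2589 transcripts matched exactly.

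Counts of all row types were fitted together in R 4.3.3 with edgeR 4.0.16 (filterByExpr by group, TMM scaling, two-sided quasi-likelihood F-test, Benjamini-Hochberg adjustment over all rows tested). The 8 wt and 3'RR-deficient libraries shared one fit with a mean per group, and effects over both conditions or genotypes had additive terms. The Eµ comparison used all 10 libraries. The procedure was tested on simulated data. DESeq2 1.42.0, other scalings, no filter, a replicate block and leaving out each library were alternatives. The article describes independent experiments for its total RNA sequencing, but neither it nor the labels do so for the small RNA libraries, so p-values measure the spread between these pools. The p-values of the Eµ comparison measure no spread between Eµ-deficient replicates, since each condition had 1 such library. That fit takes the LPS change to be the same in all genotypes.

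The members and lists were chosen with earlier results of these data known. Named clusters were the 10 with the highest mean CPM, in each comparison the 4 largest calls in each direction (or the 3 smallest p), the longest and shortest, and the 3 nearest to Igh. Clusters were annotated with GENCODE M21 and RefSeq GRCm38.p6.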

Additional observations from a re-analysis of the deposited data

Results flagged for a closer look

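In piRNAclusterDB_1478 (chr12:3224647-3236020) every wt library was higher with LPS and every 3'RR-deficient library lower: it stood at 2.24 and 2.25 CPM without and 4.32 and 4.35 with LPS in wt, and at 4.15 and 4.15 CPM without and 1.33 and 1.47 CPM with LPS in 3'RR-deficient cells. The difference between both responses was -2.55 on the log2 scale and did not pass the edgeR test (adjusted p = 1.00). piRNAclusterDB_1054 (chr16:91922017-91929007), by Atp5o, showed the same pattern, at 1.83 and 1.84 CPM without and 4.04 and 4.01 CPM with LPS in wt, and 2.92 and 7.16 CPM without and 1.33 and 1.88 CPM with LPS in 3'RR-deficient cells, with a difference of -2.82 (adjusted p = 1.00). Both clusters were among those with the smallest p for this difference, and both were at low levels.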

How the results depend on the processing

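Calls of clusters for LPS in wt, 0 in the reported fit, were 1 with total count scaling, 1 with TMM factors from microRNA rows, 19 without the filter and 22 by the DESeq2 Wald test. In 3'RR-deficient cells they were 1, 4, 37 and 27 in the same order. Over both genotypes the 39 calls became 80, 171, 143 and 143 (79, 170, 122 and 105 of them higher), and ranged from 6 to 65 when single libraries were left out. Between 3'RR-deficient and wt cells over both conditions they were 2 without the filter, 1 by the DESeq2 Wald test and 1 with a replicate block within culture condition. Calls for Eµ-deficient against wt, 16, became 28 without the filter, 35 by the DESeq2 Wald test and 41 without both second non-stimulated libraries, and ranged from 5 to 23 when single libraries were left out. The wt, 3'RR-deficient and genotype comparisons of 8 libraries and their interaction ranged from 0 to 0 when single libraries were left out. The cause of these changes was not tested. With total count scaling the median LPS change over all rows was 0.35, and with microRNA factors 0.60, against -0.05.

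The labels do not say that a replicate number pairs samples. Differences between replicates correlated with r = 0.67 between the genotypes without LPS and 0.33 with LPS (0.27 and 0.32 over clusters alone), a hint of pairing within a condition from 2 libraries per group, and with -0.07 and -0.06 between the conditions of wt and of 3'RR-deficient cells. With the replicate block across conditions, LPS calls over both genotypes were 56 and Eµ calls 14, and the other comparisons gave 0.

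The mean share of clusters in the library counts, 12.4%, was 41.6% without microRNA rows in the total and 8.62% without piRNAclusterDB_2182. Clusters that overlap other rows were 42 on the same strand alone. Among single named clusters under all alternatives, 651 values kept their side of the threshold, 26 came to pass it and 29 no longer passed. Where either fit made a call, 0 reversed in sign, and sign changes between fits without a call were not counted. The smallest library, with 3482540.0 counts, had 391 clusters at or under 3 counts, which limits tests of low clusters.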
